A study of Saccharomyces cerevisiae with 24 samples.

Results

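The comparison set *med20Δ* yeast against wild-type yeast after both strains had been exposed to hydrogen peroxide, and it consists of the 2 dye-reversed arrays that the labels give to it, out of 24 arrays in the series. *MED20* encodes a subunit of the head module of Mediator, the complex that carries signals from DNA-bound activators and repressors to RNA polymerase II. The *med20Δ* strain carries *MED20* replaced by a kanamycin resistance marker, and the wild-type strain is BY4741. Both are MATa haploids that lack *URA3*, *LEU2* and *MET15* (given as *MET17* below) and carry a deletion allele of *HIS3*. Both strains were growing in YPD at 30°C, at an A600 of 0.2, and were given 0.32 mM hydrogen peroxide for 30 min before harvest. On each two-color array of yeast ORFs, poly(A)+ RNA of treated *med20Δ* cells was hybridized with that of treated wild-type cells. The *med20Δ* RNA was in Cy3 on the replicate 1 array and in Cy5 on the replicate 2 array, and every ratio below is *med20Δ* over wild-type. No hydrogen peroxide array set treated cells against untreated cells of one strain, so the values give the difference between the strains in peroxide and not the response of either strain to it.

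Hydrogen peroxide at this kind of dose is a sublethal oxidant for yeast. The activators Yap1 and Skn7 are known to turn on thioredoxin, glutathione and drug transport genes under it, while Msn2, Msn4 and Hsf1 turn on general stress and chaperone genes. Genes for ribosomal proteins (RP genes) and for ribosome biogenesis (*Ribi* genes) are repressed by most stresses. The question put by the study was whether Med20 takes part in repressing RP genes under conditions other than rapamycin, oxidative stress among them.

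Whether the 2 arrays held separate cultures is not given in the sources used here. The pair was therefore counted as 1 replicate, no test across samples was possible, and a gene was called higher or lower when the mean of the log2 ratios reached 2-fold. Each gene is described by its mean log2 ratio, followed in parentheses by the replicate 1 and then the replicate 2 array, and a log2 ratio of 1 is 2-fold. Genes are those chosen by a stated rule on size of change or by membership of 37 gene groups. Any other gene named was picked after its values had been seen.

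The deleted gene was examined first. The *MED20* spot (YHR041C) gave a net intensity, which is foreground less local background, of 192 and 544 in the *med20Δ* channels, against 220 and 615.5 in the wild-type channels. Its log2 ratio was -0.26 (-0.38, -0.13), lower on both arrays but by less than 2-fold, and in untreated cells it was -0.83 (-0.81, -0.85). Signal therefore remained at this spot in the deletion strain, and the direction of the ratios rests on the dyes named in the labels. The genes on either side of *MED20* were also lower, with -0.87 (-0.62, -1.12) for *BCD1* and -0.68 (-0.07, -1.28) for *NCP1*. In untreated cells *BCD1* was at -0.99 (-0.29, -1.69), but *NCP1* was higher, at 0.49 (0.43, 0.55). Among the genes deleted in both strains, *MET17* was dark, with net intensities of 27 and 9.5 in *med20Δ* and 22 and 19.5 in wild-type. *HIS3*, *LEU2* and *URA3* spots gave signal, and *URA3* reached 701 and 2806.5 in *med20Δ* and 535.5 and 1202.5 in wild-type.

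The arrays yielded 5732 of 6307 ORFs with a ratio on both. Median net intensity over the ORF spots was 278 and 356.5 in the *med20Δ* channels and 212 and 368 in the wild-type channels, and between 92.8% and 96.4% of ORF spots exceeded the spots that carry no gene name. Ratios of the 2 arrays correlated across genes with r = 0.424, a description in which genes are not independent replicates. The difference between the arrays had an SD of 0.588 over all genes. All 7 a-cell markers and all 4 alpha-cell markers exceeded background in both strains.

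A total of 162 genes (2.83% of those measured) were at least 2-fold higher in *med20Δ* than in wild-type with hydrogen peroxide, and 88 (1.54%) were at least 2-fold lower. Of these 250 genes (4.36%), 249 had the same sign on both arrays, which is a description because the genes were picked on the mean of the same arrays. At least 2-fold on each array separately, 101 genes (1.76%) were higher and 37 (0.645%) were lower. The replicate 1 array alone put 249 genes above 2-fold and 63 below, while the replicate 2 array alone put 240 above and 285 below. The 2 arrays therefore gave nearly the same number of higher genes and very different numbers of lower genes. All 250 genes exceeded background in at least 1 channel of each strain. Higher genes belonged to the gene groups in 81 cases of 162, and lower genes in 47 cases of 88. The share of all measured genes that belong to a group was not counted, so these numbers do not show an excess.

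**Figure D1:**
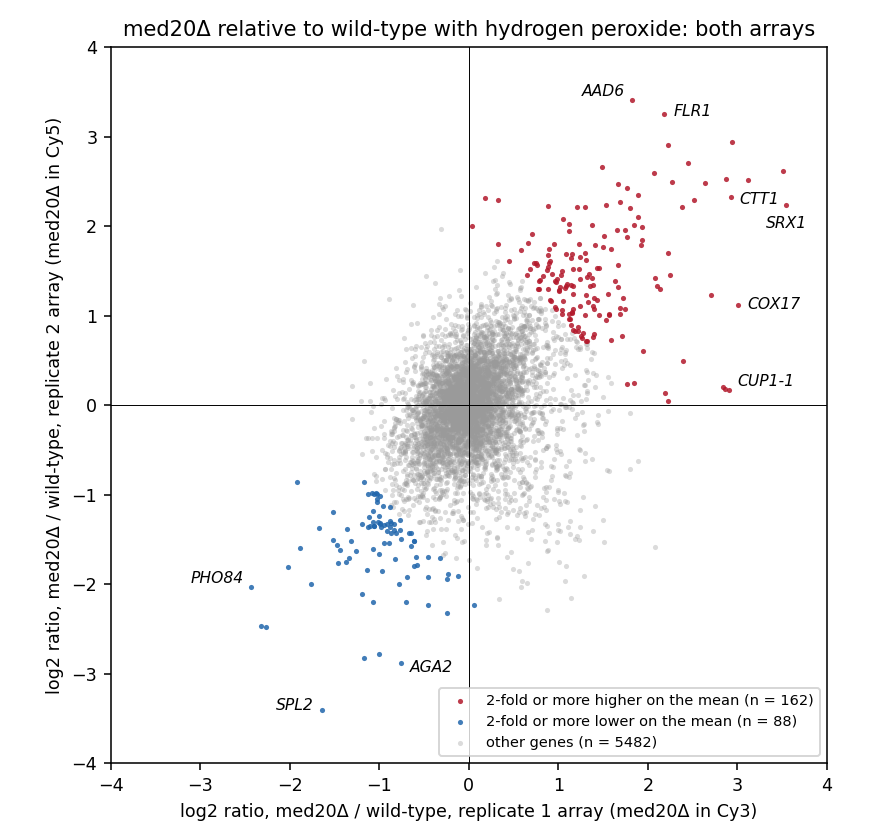
Log2 ratio of *med20Δ* over wild-type with hydrogen peroxide for each of 5732 genes, replicate 1 array on the x axis and replicate 2 array on the y axis, 1 point per gene. The 162 genes at least 2-fold higher on the mean (red) and the 88 at least 2-fold lower (blue) lie in the upper right and the lower left, many of them off the diagonal: *CUP1-1* had 2.90 and 0.17 on the replicate 1 and replicate 2 arrays, and *AGA2* had -0.76 and -2.88.

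Enzymes of the thioredoxin and peroxiredoxin system, which reduce peroxide with electrons from NADPH, included some of the largest differences. Sulfiredoxin *SRX1*, which restores over-oxidized peroxiredoxin, had net intensities of 4391.5 and 3238 in *med20Δ*, against 268.5 and 585.5 in wild-type. Its log2 ratio of 2.89 (3.55, 2.24) corresponds to 7.42-fold. For thioredoxin reductase *TRR1* the intensities were 13012 and 13268.5 in *med20Δ* and 3634 and 3511 in wild-type, a ratio of 1.85 (1.92, 1.79). Both strains were bright at *TRR1*, and the *med20Δ* channel was brighter on each array. The inducible peroxiredoxin *TSA2* had 3056.5 and 5833 in *med20Δ* and 1149 and 1073.5 in wild-type, a ratio of 1.72 (1.21, 2.22). Glutaredoxin *GRX2* gave 1.39 (1.69, 1.09) and the mitochondrial glutaredoxin *GRX5*, which serves iron-sulfur cluster assembly, gave 1.21 (0.88, 1.54). Those 5 genes were the members past 2-fold among 17 measured (29.4%, against 2.83% of all genes), and none was 2-fold lower. Other members lay below 2-fold. Thioredoxin *TRX2* was at 0.94 (1.56, 0.31), peroxiredoxin *TSA1* at 0.65 (0.76, 0.54) and mitochondrial peroxiredoxin *PRX1* at 0.83 (0.75, 0.91). Thioredoxin *TRX1* pointed in opposite directions on the arrays, at 0.42 (1.56, -0.73). The group median was 0.42, but it came from the replicate 1 array, where it was 0.76, and without replicate 1 it was -0.07. Thus the called members were higher on both arrays while the middle of the group was not.

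Genes for glutathione metabolism, catalase and superoxide dismutase were higher on both arrays in 14 of 18 cases, against 31.5% of all genes measured. Cytosolic catalase *CTT1*, which breaks down hydrogen peroxide, had net intensities of 1561 and 1554.5 in *med20Δ* and 120 and 243.5 in wild-type. The ratio was 2.63 (2.93, 2.33), or 6.19-fold. Cytochrome c peroxidase *CCP1*, which removes peroxide between the mitochondrial membranes, had 4181 and 9306.5 in *med20Δ* and 630 and 1204.5 in wild-type, a ratio of 2.58 (2.45, 2.71). Mitochondrial superoxide dismutase *SOD2* followed with 6989.5 and 4820 in *med20Δ*, against 1531 and 1568 in wild-type, a ratio of 1.75 (2.08, 1.43). All 3 genes separated the strains without overlap over the 4 channels. They were named for their large ratios, and the share of all genes without such overlap was not counted, so this adds no support. Glutathione transferase *GTT2* was at 1.57 (1.05, 2.09) and *CCS1*, the copper chaperone for Sod1, at 1.01 (1.18, 0.83). With them 5 of 18 members (27.8%, against 2.83% of all genes) were 2-fold higher and none was 2-fold lower. Genes of glutathione synthesis and recycling were below the threshold but higher on both arrays, with *GSH1* at 0.90 (0.72, 1.08), *GLR1* at 0.83 (0.78, 0.88) and *GSH2* at 0.29 (0.44, 0.15). Peroxisomal catalase *CTA1* was at 0.91 (0.37, 1.45). *HYR1*, the peroxidase that senses peroxide for Yap1, was at -0.14 (0.07, -0.36). The group median was 0.63 (0.58, 0.71), against -0.0021 over all genes.

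Transport and oxidoreductase genes linked to Yap1 gave 8 members of 23 (34.8%) at 2-fold or more, against 2.83% of all genes. The aryl alcohol dehydrogenase gene *AAD4* had net intensities of 2227 and 3779 in *med20Δ* and 192 and 398.5 in wild-type, a ratio of 2.94 (2.94, 2.94). *AAD6* had 3431.5 and 11585 in *med20Δ*, against 817 and 899.5 in wild-type, a ratio of 2.62 (1.83, 3.41). These genes belong to a family of close sequence, so their spots may share signal. The other members were not alike, since *AAD14* was at 0.96 (0.31, 1.61) while *AAD3*, *AAD10* and *AAD15* were at 0.19, 0.05 and 0.44. *GRE2*, a reductase of methylglyoxal and other carbonyls, had 4741 and 7659.5 in *med20Δ* and 426.5 and 1132.5 in wild-type, a ratio of 2.82 (3.12, 2.52). The drug exporter *FLR1* had 1872 and 2916 in *med20Δ* and 299.5 and 226.5 in wild-type, a ratio of 2.72 (2.19, 3.26). *FRM2*, a nitroreductase-like protein, was at 2.07 (1.67, 2.47), the old yellow enzyme *OYE2* at 1.27 (1.31, 1.24) and the exporter *SNQ2* at 1.23 (1.09, 1.36). *OYE3* passed on 1 array only, at 1.02 (0.04, 2.00), since its net intensities on the replicate 1 array were 2.5 in *med20Δ* and 0 in wild-type. In the other direction *YHB1*, the flavohemoglobin that detoxifies nitric oxide, was at -1.14 (-0.94, -1.33). The regulators themselves were below 2-fold, with *YAP1* at 0.56 (0.25, 0.88) and *SKN7* at -0.32 (-0.33, -0.32). Over the 23 genes the median was 0.52 (0.20, 0.58).

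**Figure D2:**
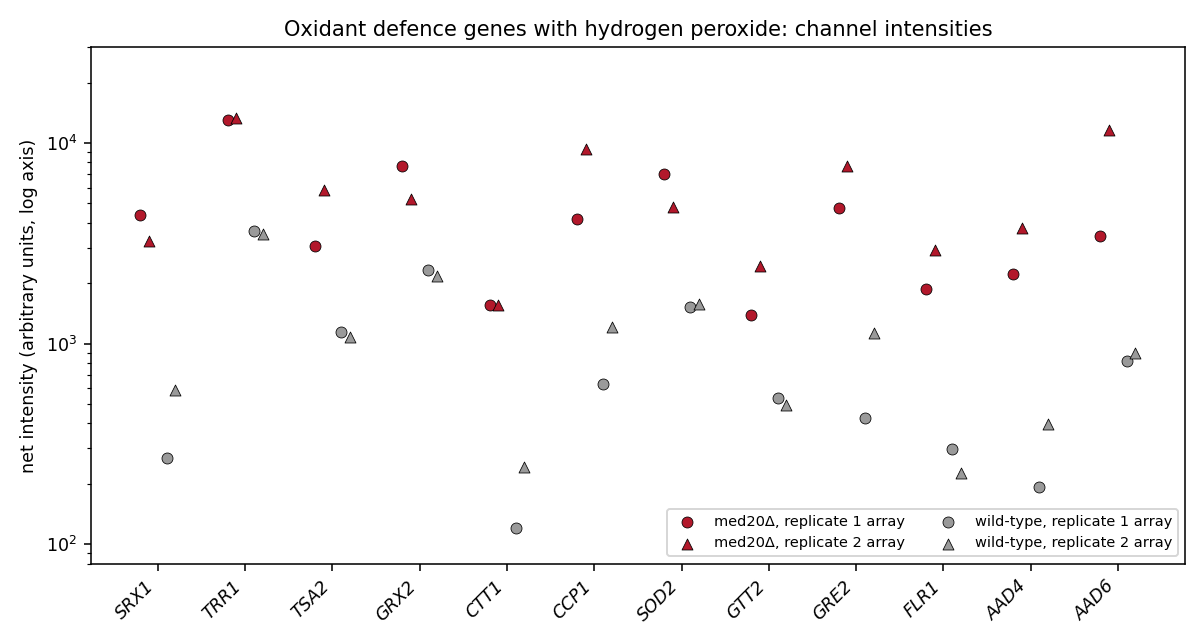
Net intensity on a log axis, in arbitrary units, of 12 oxidant defence genes with hydrogen peroxide, for *med20Δ* (red) and wild-type (grey) on the replicate 1 (circles) and replicate 2 (triangles) arrays. For each gene both *med20Δ* points lie above both wild-type points, for example 4391.5 and 3238 against 268.5 and 585.5 at *SRX1*. The 12 genes were picked from members called 2-fold higher, so this separation follows from the choice, and members that were not higher are not drawn. Spots of different genes are not comparable in level.

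NADPH for these systems comes largely from the oxidative pentose phosphate pathway, and its genes showed no common direction. *ZWF1*, the first enzyme of the pathway, was at 0.81 (0.60, 1.01), but *TAL1* was at -1.25 (-1.13, -1.36) and *RKI1* at -1.22 (-0.89, -1.54). The last pair act in the non-oxidative branch. Of 20 members measured, 0 were 2-fold higher and 2 were 2-fold lower, and the median was 0.036.

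The highest ratio of all belonged to YCR102C, at 3.06 (3.50, 2.62), with net intensities of 4095 and 3544.5 in *med20Δ* and 255 and 479.5 in wild-type. Carbonic anhydrase *NCE103* had 3295.5 and 5617.5 in *med20Δ*, against 333 and 823 in wild-type, a ratio of 2.70 (2.88, 2.53). *FRE1*, the surface ferric and cupric reductase, was at 2.38 (2.27, 2.49), *AIM33* at 2.56 (2.22, 2.91) and *RTK1*, a putative protein kinase, at 2.30 (2.38, 2.21). All 15 of the highest genes were above 1.8 on each array, and in untreated cells the same 15 lay between -0.55 for *GRE2* and 0.40 for *NCE103*. Outside the gene groups, the highest genes were YML131W at 2.12 (1.89, 2.35), the cysteine transporter *YCT1* at 2.09 (1.76, 2.42), the ubiquitin protease *DOA4* at 2.00 (1.80, 2.21) and *RPM2*, the protein subunit of mitochondrial RNase P, at 2.00 (1.89, 2.11). *CIN5*, a Yap-family factor also called Yap4, was at 1.96 (2.23, 1.70), and *ROX1*, the heme-dependent repressor of hypoxic genes, at 1.19 (1.07, 1.31). The metallothionein spots *CUP1-1* and *CUP1-2*, copies of one sequence, reached 1.54 (2.90, 0.17) and 1.53 (2.84, 0.21) and so rested on the replicate 1 array.

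**Figure D3:**
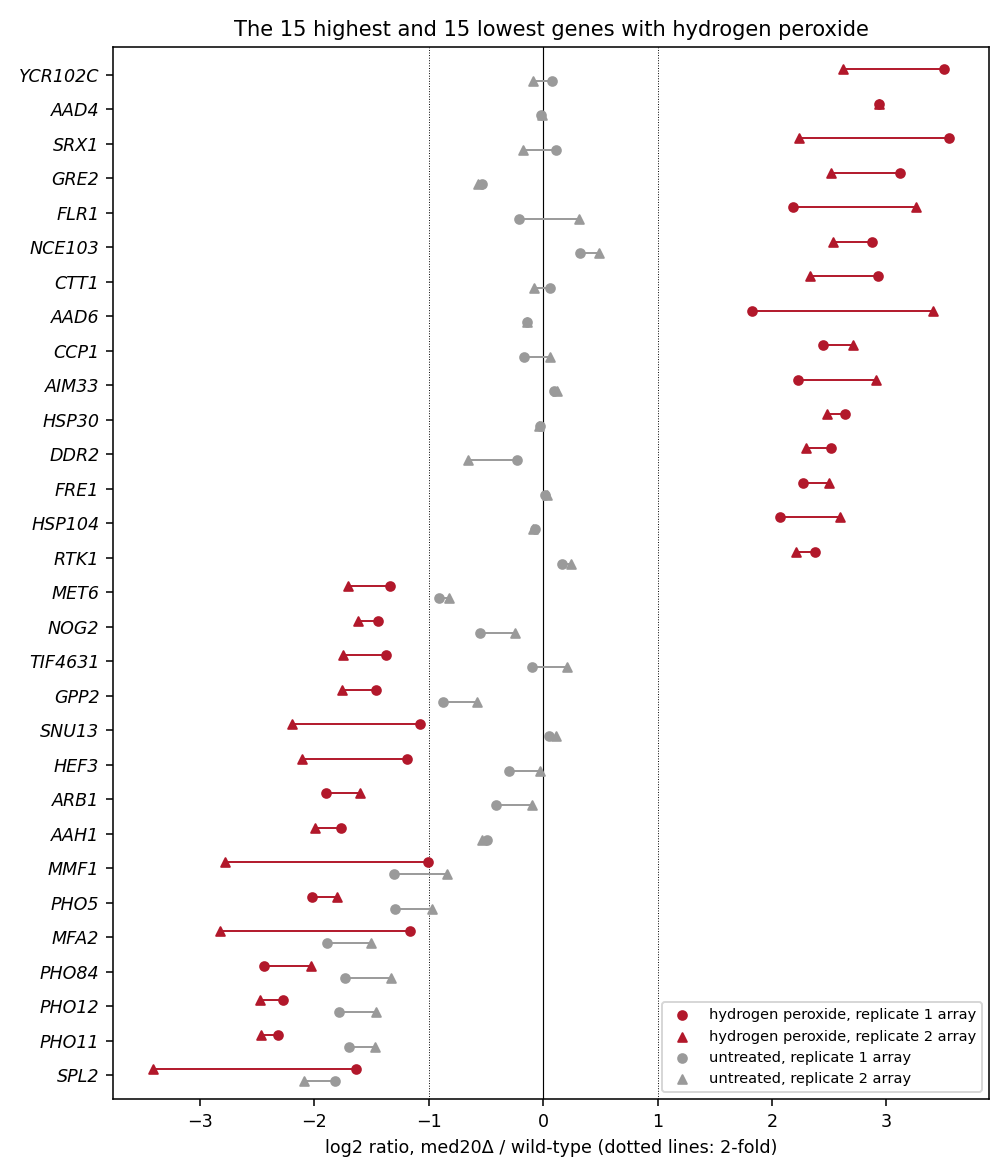
Log2 ratio of *med20Δ* over wild-type for the 15 highest and 15 lowest genes with hydrogen peroxide (red) and for the same genes in untreated cells (grey), circles for replicate 1 and triangles for replicate 2 arrays, each pair joined by a line. The 15 highest genes lie between -0.55 and 0.40 on the mean in untreated cells, whereas *SPL2*, *PHO11*, *PHO12*, *PHO84* and *MFA2* lie below -1 in both conditions.

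Heat shock proteins and cytosolic chaperones, many of which refold or disaggregate proteins, formed a group that also holds genes of other roles, such as *HSF1* and *OPI10*. Its members were higher on both arrays in 31 of 45 cases and lower on both in 0, against 31.5% and 29.6% of all genes. At 2-fold or more, 16 of 45 (35.6%, against 2.83% of all genes) were higher and none was lower. The disaggregase *HSP104* had net intensities of 4415 and 9449.5 in *med20Δ* and 907 and 1326.5 in wild-type, a ratio of 2.33 (2.07, 2.60). Its Hsp70 partner system was represented by *SSA4* at 1.76 (1.30, 2.21) and the nucleotide exchange factors *SSE2* at 1.93 (1.84, 2.01) and *FES1* at 1.62 (1.67, 1.56). J-protein *SIS1* was at 1.49 (1.45, 1.54), and the small heat shock proteins *HSP42* and *HSP26* were at 1.53 (1.11, 1.95) and 1.24 (1.40, 1.08). Nuclear import factor *OPI10* and the ubiquitin ligase modulator *ROQ1* were at 1.89 (1.94, 1.85) and 1.85 (2.25, 1.45). Mitochondrial chaperones were also higher, with *HSP60* at 1.31 (1.43, 1.18), *SSC1* at 1.12 (1.16, 1.08) and *MDJ1* at 1.28 (0.88, 1.68). Constitutive cytosolic members below 2-fold included *SSA1* at 0.41 (0.14, 0.68), *HSC82* at 0.56 (0.60, 0.53) and *YDJ1* at -0.02 (0.00, -0.04). *HSP12*, a membrane-associated small stress protein, was at 0.05 (0.36, -0.26) and *HSF1*, the activator, at -0.09 (-0.18, 0.00). The heat shock median was 0.56 (0.60, 0.53). Chaperones that work on the ribosome did not share it, since *SSB1* and *SSB2*, near-identical copies, were at -0.92 (-0.54, -1.30) and -0.95 (-0.74, -1.16) and *ZUO1* was at 0.46 (0.66, 0.27).

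*HSP30*, a plasma membrane protein that restrains the proton ATPase, belongs to a family of 3 with *YRO2* and *MRH1*. It had net intensities of 11180.5 and 13964.5 in *med20Δ* and 1736.5 and 2220.5 in wild-type, a ratio of 2.56 (2.64, 2.48). *YRO2* was at 2.08 (1.49, 2.66), with 745.5 and 1912.5 in *med20Δ*, against 181.5 and 231.5 in wild-type. *MRH1* was level between the strains at -0.04 (0.02, -0.10), although in untreated cells it was at -2.41.

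General stress genes with Msn2 and Msn4 sites gave 10 of 46 members (21.7%) at 2-fold or more and 1 at 2-fold lower, against 2.83% and 1.54% of all genes, with a median of 0.31 (0.31, 0.38). Besides *CTT1*, *DDR2* was at 2.40 (2.52, 2.29), vacuolar aminopeptidase *APE1* at 1.96 (1.93, 1.99) and *DDR48* at 1.70 (1.38, 2.02). Aldehyde dehydrogenase *ALD3* was at 1.45 (1.24, 1.66) and glutamate decarboxylase *GAD1*, which supports oxidant tolerance, at 1.41 (1.35, 1.46). The member below was *GPP2*, a glycerol phosphatase, at -1.61 (-1.46, -1.76), while *GPD1*, the enzyme that precedes it in glycerol synthesis, was at 1.10 (1.16, 1.04). *GPP1* lay beside *GPP2*, at -1.51 (-1.52, -1.504). Trehalose and glycogen genes had 4 of 18 members (22.2%) past 2-fold, all higher, against 2.83% of all genes. They were *TSL1* and *TPS2* of trehalose synthesis at 1.81 (1.65, 1.96) and 1.31 (0.32, 2.29), trehalase *NTH1* at 1.599 (1.41, 1.79) and glycogen synthase *GSY2* at 1.20 (0.99, 1.42). *TPS2* rested on the replicate 2 array, and 3 members were lower on both arrays. The group median was 0.26 (0.17, 0.51).

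Iron genes had 5 of 30 members (16.7%) past 2-fold, all higher, against 2.83% of all genes, with a median of 0.16 (-0.10, 0.23) that changed sign between arrays. After *FRE1* came the iron-sulfur cluster scaffolds *ISU2* at 1.72 (2.14, 1.30) and *ISU1* at 1.51 (1.64, 1.39), the mRNA decay factor *CTH1* at 1.63 (1.501, 1.77) and the iron regulator *AFT2* at 1.06 (0.65, 1.46). The uptake permease *FTR1* was at 0.57 (0.34, 0.80) and the oxidase *FET3* at 0.29 (-0.08, 0.67). Aconitase *ACO1*, an iron-sulfur enzyme of the TCA cycle, had net intensities of 4373 and 7497 in *med20Δ* and 1133.5 and 1763 in wild-type, a ratio of 1.82 (1.76, 1.88). The glyoxylate cycle citrate synthase *CIT2*, isocitrate dehydrogenase *IDH1* and malate dehydrogenase *MDH1* were at 1.27 (1.04, 1.498), 1.41 (1.75, 1.08) and 1.16 (1.58, 0.73). These 4 genes were the called members of 21 (19.0%, against 2.83% of all genes 2-fold higher). The group median was -0.073, and *KGD1* and *LSC2*, of the 2-oxoglutarate and succinyl-CoA steps, were at 0.28 (-0.23, 0.79) and -0.58 (0.31, -1.47).

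Respiratory chain genes were higher on both arrays in 22 of 38 cases (31.5% of all genes) and lower on both in 0 (29.6% of all genes). Cytochrome c, *CYC1*, had net intensities of 4500.5 and 3853.5 in *med20Δ* and 558 and 1446.5 in wild-type, a ratio of 1.97 (2.71, 1.23). The ATPase inhibitor *INH1* was at 1.35 (1.17, 1.53). Their group median of 0.41 was 0.68 on replicate 1 and 0.07 on replicate 2. Genes for cytochrome oxidase assembly were higher on both arrays in 15 of 21 cases and 2-fold higher in 4 (19.0%, against 2.83% of all genes). *COX17*, the copper chaperone of the intermembrane space, had 1469.5 and 758 in *med20Δ* and 100.5 and 311.5 in wild-type, a ratio of 2.06 (3.01, 1.12). *SCO1*, which receives copper from Cox17, was at 1.48 (1.43, 1.53), *COA1* at 1.39 (1.08, 1.69) and the translation activator *MSS51* at 1.20 (1.17, 1.24). Mitochondrial RP genes were higher on both arrays in 57 of 71 cases and lower on both in 3, against 31.5% and 29.6% of all genes. At 2-fold, 8 of them (11.3%, against 2.83% of all genes) were higher, *MRPS35* being highest at 1.16 (1.30, 1.01). Their median was 0.55 (0.68, 0.32). It was also above 0 in every other condition, from 0.25 with heat to 0.61 with chlorpromazine, with 0.30 in untreated cells.

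Proteasome genes were higher on both arrays in 21 of 35 cases and lower in 3, against 31.5% and 29.6% of all genes. Their median was 0.38 (0.49, 0.27). In untreated cells it was 0.23 and after rapamycin 0.44, while in the remaining conditions it lay between -0.19 and 0.03. The 1 member past 2-fold (2.86%, against 2.83% of all genes) was *RPN4*, the transcription factor that induces proteasome genes, at 1.38 (1.32, 1.44). The lid subunit *RPN6* was next at 0.94 (0.93, 0.95). Among 40 genes of endoplasmic reticulum folding, 2 (5.0%, against 2.83% of all genes) were 2-fold higher, and the median was -0.02. They were the Hsp70 *KAR2* at 1.5 (1.30, 1.70) and the thiol oxidase *ERO1* at 1.46 (1.73, 1.20).

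**Figure D4:**
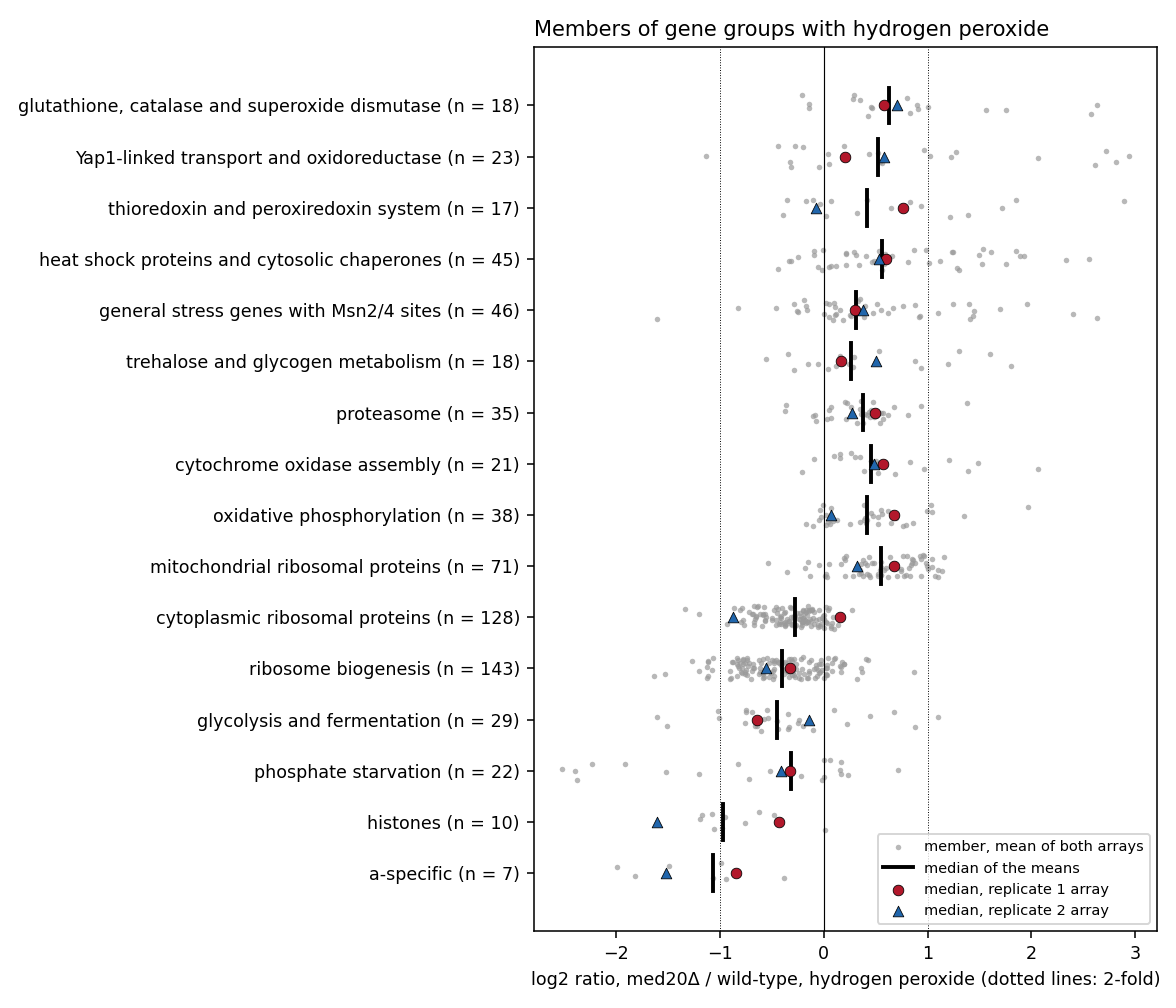
Log2 ratio of *med20Δ* over wild-type with hydrogen peroxide for members of 16 gene groups (grey points, mean of both arrays), with the median of the means (black bar) and the median on the replicate 1 (red circle) and replicate 2 (blue triangle) arrays. Array medians lie close together for heat shock proteins, at 0.60 and 0.53, and far apart for cytoplasmic RP genes, at 0.16 and -0.88.

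Phosphate starvation genes, which scavenge phosphate under control of Pho4, held 5 of the 6 lowest values of the whole comparison. *SPL2*, which restrains low-affinity phosphate uptake, had net intensities of 106 and 56.5 in *med20Δ* and 388.5 and 1459.5 in wild-type, a ratio of -2.52 (-1.64, -3.41). The high-affinity transporter *PHO84* had 207 and 426 in *med20Δ*, against 1187 and 1978.5 in wild-type, a ratio of -2.23 (-2.44, -2.03). Acid phosphatases *PHO11*, *PHO12*, *PHO5* and *PHO3* were at -2.39 (-2.32, -2.46), -2.37 (-2.27, -2.48), -1.91 (-2.02, -1.80) and -1.52 (-1.67, -1.37). *PHO11* and *PHO12* are near-identical, and *PHO3* and *PHO5* are close, so these spots are not separate measurements. *VTC1* of polyphosphate synthesis was at -1.20 (-1.06, -1.34), which made 7 of 22 members (31.8%, against 1.54% of all genes) 2-fold lower and 0 higher. The regulators *PHO4* and *PHO81* were at -0.33 (-0.19, -0.47) and -0.52 (-0.51, -0.53). In untreated cells, where 0.683% of all genes were 2-fold lower, 5 members were 2-fold lower too.

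The a-specific genes, expressed in MATa cells only, were lower on both arrays in 7 of 7 cases, and 4 of 7 (57.1%) were 2-fold lower. Over all genes these shares were 29.6% and 1.54%. The a-factor gene *MFA2* had net intensities of 1954.5 and 1927 in *med20Δ* and 4193 and 12845 in wild-type, a ratio of -2.00 (-1.17, -2.82). *MFA1* was at -1.49 (-1.14, -1.84), the agglutinin subunit *AGA2* at -1.82 (-0.76, -2.88) and *ASG7* at -1.07 (-0.62, -1.52). The receptor *STE2* and protease *BAR1* were at -0.94 (-1.04, -0.84) and -0.99 (-0.85, -1.14), and the exporter *STE6* at -0.39 (-0.24, -0.54). Summed over the 7 markers, net intensity was 6294.5 and 8095 in *med20Δ* and 12540.5 and 33018 in wild-type. Over the 4 alpha-specific markers the sum was 1338 and 1454 in *med20Δ*, against 1431.5 and 1942.5 in wild-type, lower in *med20Δ* on both arrays. These sums are net intensities before normalization. After it the alpha-specific median ratio was -0.31 (-0.33, 0.06), with 2 markers lower on both arrays and 2 of opposite signs. Fewer cells expressing a gene and less RNA per cell cannot be told apart in these bulk samples, and the part of the a-specific markers in other results was not tested. The a-specific median was -1.07 (-0.85, -1.52) with hydrogen peroxide and -0.86 in untreated cells.

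*Ribi* genes, which make and process rRNA, were lower on both arrays in 92 of 143 cases and higher on both in 11, against 29.6% and 31.5% of all genes. At 2-fold, 11 (7.69%, against 1.54% of all genes) were lower and 0 higher. *SNU13*, of the box C/D snoRNPs, had net intensities of 2703 and 2394.5 in *med20Δ* and 5617.5 and 10229.5 in wild-type, a ratio of -1.64 (-1.07, -2.20). The 60S assembly GTPase *NOG2* was at -1.53 (-1.44, -1.61), *MAK16* at -1.27 (-0.83, -1.72) and *RPA135*, the second largest subunit of RNA polymerase I, at -1.20 (-1.05, -1.35). The median of *Ribi* genes was -0.40 (-0.32, -0.56), so most of its members differed by less than 2-fold but in one direction. Genes outside the group that were 2-fold lower, picked after their values were seen and not a count of any class, included *TIF4631*, the scaffold eIF4G1, at -1.56 (-1.37, -1.75), the ribosomal ATPase *ARB1* at -1.74 (-1.89, -1.598), *RLI1*, which recycles ribosomes, at -1.22 (-1.10, -1.34) and elongation factor *YEF3* at -1.45 (-1.27, -1.63). *HEF3*, a close copy of *YEF3*, was at -1.65 (-1.19, -2.11).

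The arrays disagreed on cytoplasmic RP genes, whose median was 0.16 on the replicate 1 array and -0.88 on the replicate 2 array, with -0.28 for the mean, so that without replicate 2 the direction turned. Array and dye orientation cannot be told apart here. Of 128 measured, 84 had opposite signs on the arrays. On both arrays 42 were lower and 2 were higher, against 29.6% and 31.5% of all genes. The lowest were *RPL9B* at -1.34 (-0.45, -2.23) and *RPS7B* at -1.21 (-0.61, -1.80). They were the 2 members (1.56%, against 1.54% of all genes) that were 2-fold lower, and none was 2-fold higher. The highest RP gene was at 0.27. RP genes were 2-fold or more higher in *med20Δ* in 0 of 128 cases on the mean with hydrogen peroxide, with a median of -0.28. Their median was -0.06 with heat, 1.22 with tunicamycin, 0.58 with chlorpromazine, 1.41 after rapamycin, 0.48 at the diauxic shift and 0.13 untreated.

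Histone genes showed a gap of the same direction between arrays but stayed below 0 on both at the median. *HHF2* for histone H4 had net intensities of 4249 and 4488 in *med20Δ* and 5969.5 and 16296.5 in wild-type, a ratio of -1.19 (-0.46, -1.92). *HTB1* for H2B, *HHT1* for H3 and *HHF1* for H4 were at -1.18 (-0.57, -1.78), -1.08 (-0.46, -1.70) and -1.06 (-0.23, -1.89). Since histone genes exist in near-identical copies, spots of a pair may share signal. The histone median was -0.97 (-0.43, -1.604), and 8 of 10 genes were lower on both arrays, against 29.6% of all genes. The variants differed, with *HTZ1* at -0.48 (0.05, -1.01) and the centromeric *CSE4* at 0.01 (0.35, -0.32). The DNA damage and ribonucleotide reductase group had a median of 0.027. Its members were lower on both arrays in 7 of 19 cases and higher in 4, against 29.6% and 31.5% of all genes. Its 2 members past 2-fold (10.5%, against 1.54% of all genes) were the reductase subunit *RNR1* at -1.33 (-1.01, -1.66) and the checkpoint-induced *HUG1* at -1.24 (-0.95, -1.54).

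Among metabolic genes, adenine deaminase *AAH1* was at -1.88 (-1.76, -2.00), methionine synthase *MET6* at -1.52 (-1.33, -1.71), the fatty acid elongase *ELO2* at -1.52 (-1.48, -1.56) and *MMF1*, a mitochondrial protein of isoleucine metabolism, at -1.89 (-1.01, -2.78). Pyrimidine genes *URA1* and *URA7* were at -1.15 (-0.99, -1.31) and -1.04 (-1.03, -1.05). Sterol and lipid genes were lower on both arrays in 25 of 40 cases, against 29.6% of all genes, with a median of -0.24 (-0.24, -0.26). Squalene synthase *ERG9* stood opposite at 1.38 (1.23, 1.52). In glycolysis and fermentation 19 of 29 genes were lower on both arrays, against 29.6% of all genes. At 2-fold 4 (13.8%, against 1.54% of all genes) were lower, among them *TPI1* at -1.02 (-1.06, -0.99). Over all 29 the median was -0.45 (-0.64, -0.14). Of the remaining groups, amino acid biosynthesis, hexose transporters, permeases, nitrogen catabolism and Mediator subunits had medians between -0.04 and 0.09. Within amino acid biosynthesis the transaminase *BAT1* was at -1.41 (-0.97, -1.85) and argininosuccinate synthase *ARG1* at 1.29 (1.57, 1.00).

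Neighbors on the chromosome were compared because divergent genes can share a promoter. Among the called genes, 25 adjacent pairs were found, and 20 of them differed in the same direction. Of 7 divergent pairs, 6 did so. Over all 4605 adjacent pairs of measured genes 51.4% had ratios of one sign, over the 1182 divergent pairs 51.2%, and over all possible pairs of called genes 54.2%. These are descriptions without a test. Examples were *IDH1* and *NCE103* at 1.41 and 2.70, *CCP1* and *GPT2* at 2.58 and 1.36, YLL056C and *YCT1* at 1.85 and 2.09, and the histone pair *HHF1* and *HHT1*. The exception was *ANB1* and *CYC1*, which code for the hypoxic form of eIF5A and for the aerobic cytochrome c, at -1.04 (-0.66, -1.42) and 1.97 (2.71, 1.23). *FLR1*, at 2.72, lay next to *HHF1*, at -1.06. Most called genes, 206 of 250, had no called neighbor. Only 240 of the 250 had a place in the gene table, and the rest could not be paired.

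The same strains were compared untreated, after 20 min of heat (29 to 39°C), with tunicamycin (2.5 µg/ml, 90 min by the labels), chlorpromazine (1 h) or rapamycin (0.2 µg/ml, 1 h), and at the diauxic shift after 48 h. The hydrogen peroxide ratios correlated across genes with r = 0.329 for heat and 0.153 for untreated cells. For rapamycin, tunicamycin, chlorpromazine and the diauxic shift r lay between -0.109 and 0.00. These are descriptions over genes, and no difference between conditions was tested. The 162 higher genes had a median of 1.31 with hydrogen peroxide and 0.02 (0.01, 0.02) in untreated cells. Only 5 of them were 2-fold higher in untreated cells as well, which is 3.09% of the 162 and 35.7% of the 14 untreated genes (0.245% of those measured). They were *COX17*, *TIP1*, *HSP10*, *HSP60* and *SSC1*, the last 3 being mitochondrial chaperones, although *HSP10* rested on replicate 1 at 1.52 (2.86, 0.18). Another 8 of the 162 were 2-fold lower in untreated cells, among them *DDR48* at 1.70 with hydrogen peroxide and -1.42 untreated, *GPD1* at 1.10 and -1.41, *COA1* at 1.39 and -1.31 and *HSP26* at 1.24 and -1.11. Of the 88 lower genes, 11 were 2-fold lower untreated (12.5% of the 88 and 28.2% of the 39 untreated genes, themselves 0.683% of those measured), and they included *SPL2*, *PHO84*, *PHO5*, *MFA1*, *MFA2* and *AGA2*.

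The higher genes that were 2-fold lower in another condition numbered 11 of 159 with tunicamycin (0.743% of all genes), 32 of 162 with chlorpromazine (2.16%), 20 of 162 after rapamycin (1.81%) and 27 of 161 at the diauxic shift (1.98%).

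With heat, 16 of the higher genes were again 2-fold higher (10.1% of the 159 measured and 34.0% of the 47 heat genes, themselves 0.823% of all). Among them were chaperones, a cofactor and the membrane protein *HSP30*, which was at 2.56 with hydrogen peroxide and 1.27 with heat. The chaperone *HSP104* was at 2.33 and 1.18, the chaperone *KAR2* at 1.5 and 1.45 and the cofactor *FES1* at 1.62 and 1.70. Of the 16, *COX17*, *TIP1*, *HSP10*, *HSP60* and *SSC1* were 2-fold higher in untreated cells as well. Another 7 of the higher genes were among the 2.01% of all genes that were 2-fold lower with heat, including *ALD3* at 1.45 with hydrogen peroxide and -2.17 with heat and *TSA2* at 1.72 and -1.44. Of the 88 lower genes, 21 were 2-fold lower with heat as well, which is 23.9% of the 88 and 18.3% of the 115 heat genes, and 0 were 2-fold higher. They included *SPL2* at -2.52 with hydrogen peroxide and -3.06 with heat, *PHO84* at -2.23 and -2.59, *MET6* at -1.52 and -2.08 and *NOG2* at -1.53 and -1.07. Of the 21, *SPL2*, *PHO84*, *MFA1*, *MFA2*, *GCV3* and *CHA1* were 2-fold lower in untreated cells as well. The median of the 88 with heat was -0.67. Oxidant defence groups had negative medians with heat, which were -0.13 for glutathione, catalase and superoxide dismutase and -0.10 for Yap1-linked genes. The heat shock group had medians of 0.56 with hydrogen peroxide, 0.75 with heat and 0.18 untreated. Histones, at -0.97 with hydrogen peroxide, were at 0.27 with heat and -0.06 untreated.

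**Figure D5:**
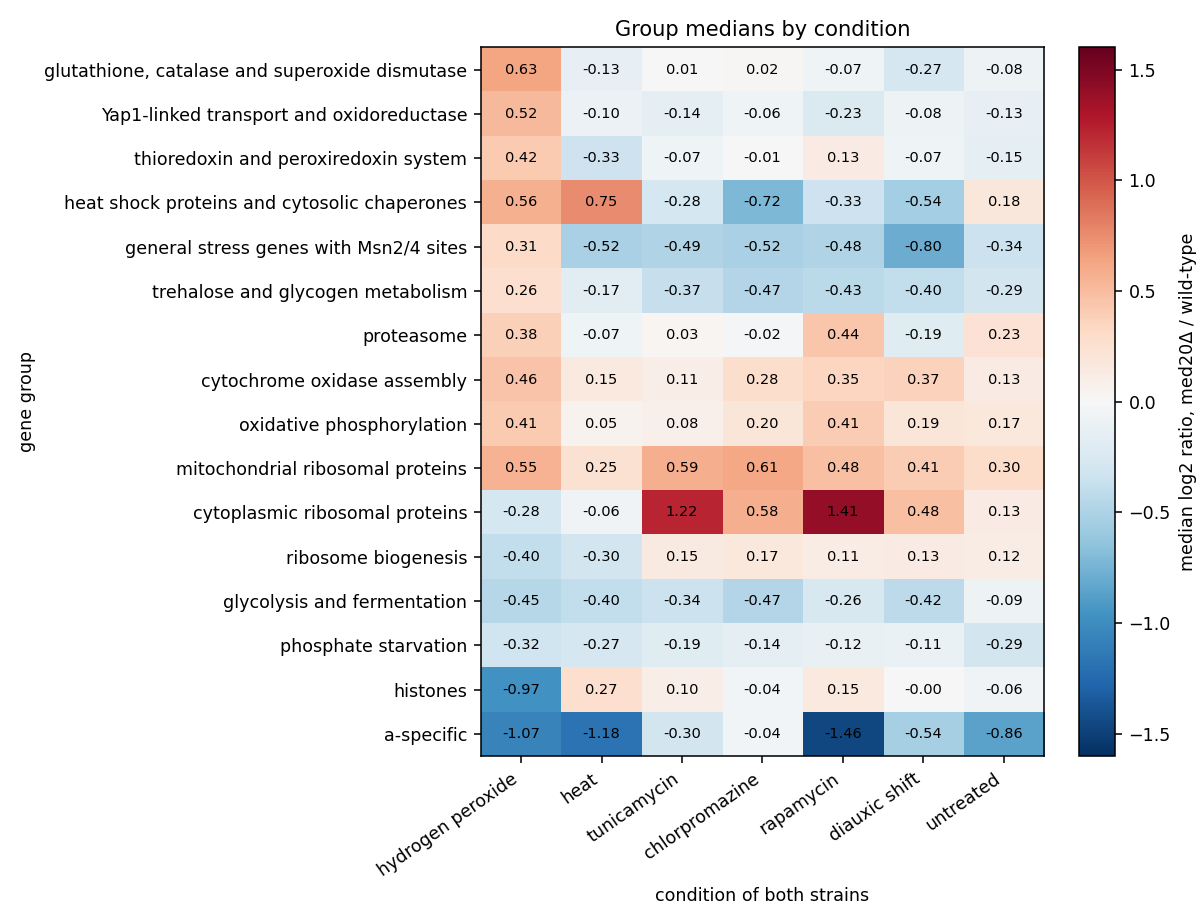
Median log2 ratio of *med20Δ* over wild-type for 16 gene groups (rows) in 7 conditions of both strains (columns), hydrogen peroxide first and untreated last, each a mean of 2 arrays, with the color scale running from lower (blue) to higher (red) in *med20Δ*. The oxidant defence groups are above 0.4 with hydrogen peroxide and between -0.33 and 0.13 elsewhere, and cytoplasmic RP genes are at -0.28 with hydrogen peroxide and at 1.41 after rapamycin.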

How the data were processed

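The authors deposited 1 processed file per array, holding for both dyes the intensity of each spot and of its surroundings. The deposited files also hold a normalized log10 ratio, used here only as an alternative. The scanner, the image software and the meaning of the flag are not given in the sources used here. Each array has 6912 spots. Left out were 576 controls and any spot not flagged 1, which took 549 and 574 ORF spots from the hydrogen peroxide arrays. Intensities were corrected with normexp (offset 50) and normalized within array by loess (span 0.3) in limma 3.58.1 under R 4.3.3. Ratios were turned to *med20Δ* over wild-type by the labeled dye and averaged. Counts, medians and figures were made with numpy 2.4.6, pandas 2.3.3 and matplotlib 3.10.9 (Python 3.11.15). The procedure was tested on simulated data. A spot exceeded background above the 95th percentile of 29 unnamed spots of its channel. Names came from the R64 gene table of RefSeq, which matched 5801 ORFs and not 506. Array number limits the precision.

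Named genes were *MED20* and its neighbors, the 15 highest and 15 lowest by mean among genes past 2-fold on both arrays, up to 4 members per gene group with the largest mean of 1 sign on both arrays, and the genes deleted in the strain background. Members and the 37 groups were chosen with earlier results of these data known. Alternatives were no background correction, subtraction of local background, median centering, loess outside RP and *Ribi* genes, the authors' log10 ratios, leaving out the dimmest 25% of ORFs, either array alone, other fold thresholds, and limma over 24 arrays with and without a replicate block. Promoter motifs were planned but not analysed here. Of the other array pairs, those without *med20Δ* were not used for results except in the limma fit and the check of replicate numbers.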

Additional observations from a re-analysis of the deposited data

Results flagged for a closer look

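Several results lay on opposite sides of 0 on both hydrogen peroxide arrays and on both untreated arrays, and in no case was the difference between conditions tested. Among the 30 genes with the largest differences, *AAD4* was at 2.94 with hydrogen peroxide and -0.01 untreated, *GRE2* at 2.82 and -0.55, *AAD6* at 2.62 and -0.14, *HSP30* at 2.56 and -0.03, *DDR2* at 2.40 and -0.44, *HSP104* at 2.33 and -0.08, and *SNU13* at -1.64 and 0.08. For *AAD4*, *HSP30*, *HSP104* and *SNU13* the untreated value is so near 0 that its sign carries little. *GRE2* and *DDR2* were below 0 on both untreated arrays by more, at -0.54 and -0.57 for *GRE2* and -0.22 and -0.65 for *DDR2*.

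The same held for the medians of 9 gene groups. General stress genes were at 0.31 with hydrogen peroxide and -0.34 untreated, trehalose and glycogen genes at 0.26 and -0.29, and the *HSP30*, *YRO2* and *MRH1* family at 2.08 and -0.72. Glutathione, catalase and superoxide dismutase genes were at 0.63 and -0.08, Yap1-linked genes at 0.52 and -0.13, and *Ribi* genes at -0.40 and 0.12. Sterol and lipid genes at -0.24 and -0.03, pentose phosphate genes at 0.036 and -0.06 and TCA cycle genes at -0.073 and -0.04 complete the set. For TCA cycle genes the median of the means was below 0 with hydrogen peroxide although both array medians were above it, at 0.017 and 0.026, and for sterol genes the same held untreated, at 0.023 and 0.02.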

How the results depend on the processing

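Hydrogen peroxide counts of genes 2-fold higher and lower were 162 and 88, and they moved to 259 and 155 from the authors' ratios, 286 and 150 after subtracting local background, 101 and 37 at 2-fold on both arrays, and 478 and 353 at 1.5-fold. With no background correction they were 209 and 104, and 1 array alone gave 240 to 249 higher and 63 to 285 lower, so that 45.7% of changed genes were higher without replicate 1 and 79.8% without replicate 2, against 64.8% on the mean. The 30 genes named for size stayed past 2-fold under every processing alternative that gave them a value. They had been chosen as past 2-fold on each array, so the single arrays add nothing. The glutathione group median was 0.63, against 0.77 with local background subtracted and 0.81 without the dimmest 25% of ORFs, with 0.58 to 0.71 on single arrays. The heat shock median was 0.47 with loess outside RP and *Ribi* genes and 0.66 with the authors' ratios, with 0.53 to 0.60 on single arrays. Single arrays gave -0.56 to -0.32 for *Ribi* genes, -0.07 to 0.76 for thioredoxin genes and -0.88 to 0.16 for RP genes. Under the 5 processing alternatives RP genes lay between -0.48 and -0.23. Causes were not tested.

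Taking the arrays as separate samples, limma over 24 arrays put 158 genes higher and 87 lower at 2-fold and an adjusted p threshold of 0.05, and with the replicate number as a block 160 and 88. Such p-values measure only the spread between arrays, which may be technical. In the comparisons of strains the number equals the dye orientation, and in the remaining 4 arrays it is reversed. The gap between both arrays of a comparison correlated over genes, hydrogen peroxide against other *med20Δ* comparisons, with r = 0.604 for the diauxic shift, 0.545 for heat, 0.454 for chlorpromazine, 0.212 for tunicamycin, -0.151 for rapamycin and -0.222 for untreated cells. No source pairs arrays by number, not every correlation exceeded 0.1, and in these comparisons number and dye cannot be told apart. Over the alternatives run, group medians moved beyond the spread between arrays in 72 cases and not in 216, named genes in 25 and not in 223. YGR272C, lower at -1.09, had 0.056 on the replicate 1 array and -2.23 on the replicate 2 array, so that its direction turned without replicate 2. The SD of 0.588 describes the gap between 2 single arrays over genes, and is not the spread of their mean.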
